A study of Mus musculus with 47 samples.

Results

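The comparison described here was PLX5622 diet against control diet in mouse cortex collected at ZT10, late in the light phase (zeitgeber time, ZT, counts hours from lights on). Its members were taken from the sample labels alone. They were 8 of the 47 libraries of the series, 4 control and 4 PLX5622, each made from the cortex of 1 mouse. All were male C57BL/6J mice of about 3 months under a 12:12 light and dark cycle. Controls ate control chow for 10 days, and the others ate AIN-76A chow with 1200 ppm PLX5622. The drug acts throughout the body and is not directed to brain cells. The other 39 libraries came from the same design at ZT2, ZT6, ZT14, ZT18 and ZT22, with 4 mice per diet and time except 3 controls at ZT14.

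Microglia are the resident macrophages of brain tissue, and perivascular and meningeal macrophages sit at its borders. Both depend on signals through the receptor CSF1R for their survival. PLX5622 inhibits that receptor and is widely used to deplete these cells. Many cortical transcripts also follow the time of day, so an effect of depletion can in principle differ between times.

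The libraries at ZT10 held 16795170 to 23768758 assigned reads, with 6.86% to 9.03% of them from mitochondrial genes. Neuronal genes were abundant in every one. The summed level of 8 neuronal genes was 3687 to 4174 TPM (a level scaled for transcript length and library size) in controls and 3705 to 4628 TPM in PLX5622 mice. One library stood apart. The second control mouse had the highest level among the 8 for 18 of 20 genes on a cerebellum list. The main counts and some gene and list results are therefore given with and without this mouse, and the rest with it only.

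At ZT10, 156 of 14580 genes tested (1.07%) differed between the diets at an adjusted p under 0.05 (limma on log2(TPM + 1), Benjamini-Hochberg). Of these, 148 were lower on PLX5622 (1.02% of genes tested) and 8 were higher (0.0549%), so 94.9% of the calls were falls. Microglia and macrophage genes led the falls. Irrespective of the test, the 4 PLX5622 mice lay below the 4 controls for 238 genes (1.63%) and above them for 265 (1.82%). Non-overlap held for 141 of the 148 lower genes and 6 of the 8 higher genes. The median log2 fold change over all genes was 0.05, and the median standard error was 0.145. Without the second control mouse 134 genes were called, 127 lower and 7 higher, of which 126 and 3 were also called with it.

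On the log2(TPM + 1) scale, the largest falls were in the 3 chains of complement C1q. This molecule starts the classical complement cascade, and microglia make it in brain. That scale understates falls of low genes, and some listed genes kept a smaller share of their control mean. *C1qb* kept 7.47%, against 4.35% for *P2ry13* and 4.03% for *Pf4*. By edgeR the log2 fold change was -3.75 for *C1qb* and -4.49 for *P2ry13*. *C1qb* stood at 96.2, 100.5, 92.5 and 98.6 TPM in the 4 controls and at 10.96, 0.94, 1.44 and 15.6 TPM in the 4 PLX5622 mice. The groups were far apart, with the second and the third PLX5622 mice lowest. The log2 fold change was -4.14 ± 0.45 (SE, adjusted p = 9.93e-09, limma). *C1qa* fell from 109 ± 6.54 to 8.30 ± 7.92 TPM (SD, n = 4 each) and *C1qc* from 71.8 ± 4.19 to 5.78 ± 5.93 TPM. The 3 genes are neighbours on mouse chromosome 4 (GRCm38), with *C1qb* at chr4:136880129-136886187, *C1qc* at chr4:136889804-136893065 and *C1qa* at chr4:136895917-136898803.

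*Csf1r*, which encodes the receptor that PLX5622 inhibits, was at 61.1, 56.7, 31.7 and 35.3 TPM in controls and at 4.51, 0.98, 0.19 and 5.21 TPM on the drug. Its log2 fold change was -3.92 ± 0.43 (SE, adjusted p = 1.55e-08, limma). In bulk tissue, fewer cells of a type and less RNA per cell cannot be told apart. *Ctss*, a lysosomal protease of microglia, was at 94.8, 109.8, 91.9 and 99.2 TPM in controls against 12.6, 2.43, 1.26 and 12.8 TPM. *P2ry12*, the purinergic receptor of homeostatic microglia, was at 46.6, 39.5, 35.8 and 47.6 TPM against 5.89, 1.59, 1.28 and 6.28 TPM. The other genes with the largest falls were *Tyrobp* and *Fcer1g* (adaptors of activating receptors), *Selplg* (a selectin ligand) and *Fcrls*, at log2 fold changes of -3.80, -3.43, -3.61 and -3.36. All 10 had the first and the fourth PLX5622 mice above the second and the third.

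**Figure D1:**
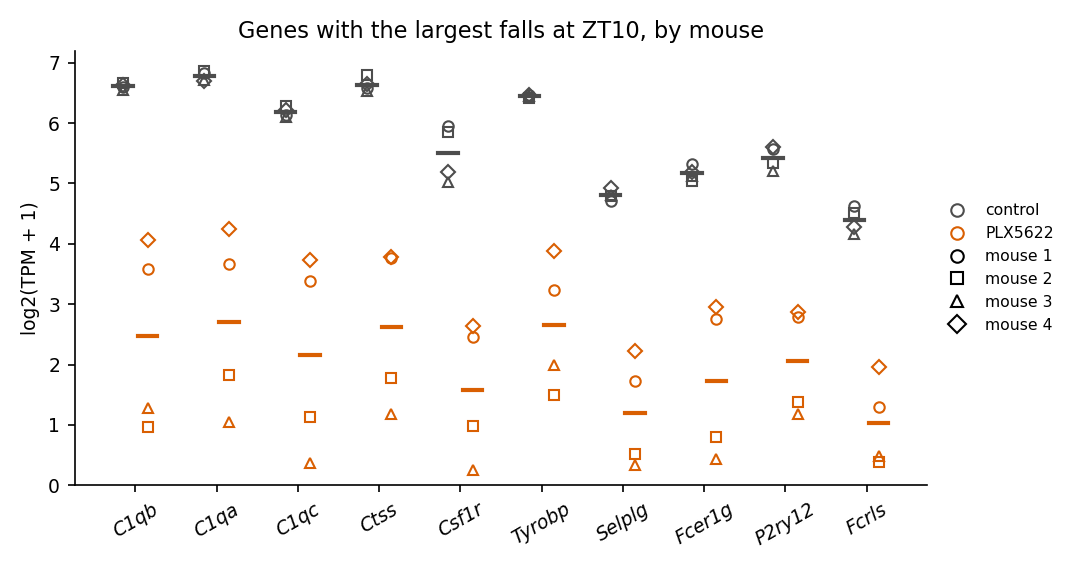
Level of the 10 genes with the largest falls at ZT10 as log2(TPM + 1) on the vertical axis, 1 symbol per mouse (4 control, 4 PLX5622), with bars at the group means. In every gene the 4 PLX5622 mice lie below the 4 controls, and the second and the third PLX5622 mice lie below the first and the fourth.

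Of the 28 genes on the microglia list, 27 had a mean of at least 1 TPM and were tested, and all 27 were called lower, against 1.02% of all genes tested. Their median log2 fold change was -3.06, against 0.05 over all genes. *Ptprc* was too low to be tested. The falls were uneven across the list. *Spi1*, which encodes the macrophage transcription factor PU.1, fell from 5.60 ± 1.62 to 0.42 ± 0.44 TPM. The smallest log2 fold change on the list was that of *Sall1*, a microglial transcription factor, which kept 59.4% of its control mean (log2 fold change -0.65 ± 0.14, SE, adjusted p = 0.00402, limma) and was not called without the second PLX5622 mouse (adjusted p = 0.0615, limma). All 27 were also called without the second control mouse.

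Border macrophage genes moved the same way, though only 3 of the 8 on the list were abundant enough to test. All 3 were called lower. *Pf4*, a chemokine of these cells, was at 5.12, 8.25, 4.49 and 5.07 TPM in controls and at 0.25, 0.48, 0 and 0.20 TPM on PLX5622. *Stab1*, a scavenger receptor, fell from 4.62 ± 0.41 to 1.41 ± 1.35 TPM (SD, n = 4 each). *Cbr2* was at 1.05, 1.76, 1.05 and 10.5 TPM in controls and at 0, 0.75, 0.49 and 0.14 TPM on the drug. Its call (adjusted p = 0.0469, limma) was lost without any 1 of 5 libraries: to adjusted p = 0.0617 and 0.464 without the second or the fourth control mouse, and to 0.198, 0.086 and 0.151 without the first, the third or the fourth PLX5622 mouse. *Mrc1*, the mannose receptor that defines these macrophages, was not tested and ran from 0.97 to 1.34 TPM in controls and from 0 to 0.13 TPM on PLX5622.

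Among the 148 lower genes, 30 were on the microglia or border macrophage list and 116 were on no list. The latter included further genes of immune cells. *Lyz2*, lysozyme of myeloid cells, fell from 17.2 ± 2.02 to 2.69 ± 1.11 TPM. *Cd68*, a lysosomal glycoprotein of macrophages, fell from 11.3 ± 1.35 to 4.06 ± 1.05 TPM. *Cd74*, the invariant chain of MHC class II, fell from 10.8 ± 2.78 to 3.73 ± 0.60 TPM. These 3 were chosen after their values were seen.

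The promoters of the lower genes were read for the 8-base PU.1-type motif GAGGAAGT on either strand. Windows of 300 bases (250 before to 50 after each RefSeq start, GRCm38.p6) matched 114 of the 148 lower genes, and 15 of those (13.2%) held it, against 349 of 10876 tested genes (3.21%) and 997 of 27025 genes in all (3.69%). This is a description with no test, and a match is not evidence of binding. Windows of a C1q chain, a lysosomal protease and a border macrophage gene are shown, chosen from the 15 that held the motif. Of the 10 genes with the largest falls, only *C1qc* and *Ctss* were among the 15. The match, here in its reverse complement, is in capitals. Its first base lies at -195 from the start of *C1qc* (window chr4:136892865-136893164, minus strand), at -2 for *Ctss* (chr3:95526536-95526835, plus strand) and at -10 for *Pf4* (chr5:90772185-90772484, plus strand).
C1qc: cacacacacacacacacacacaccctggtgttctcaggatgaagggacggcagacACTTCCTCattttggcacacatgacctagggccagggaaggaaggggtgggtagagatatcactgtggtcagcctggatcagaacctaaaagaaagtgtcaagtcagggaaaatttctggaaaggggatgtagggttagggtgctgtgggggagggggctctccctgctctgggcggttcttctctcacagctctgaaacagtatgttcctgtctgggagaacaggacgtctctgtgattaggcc
Ctss: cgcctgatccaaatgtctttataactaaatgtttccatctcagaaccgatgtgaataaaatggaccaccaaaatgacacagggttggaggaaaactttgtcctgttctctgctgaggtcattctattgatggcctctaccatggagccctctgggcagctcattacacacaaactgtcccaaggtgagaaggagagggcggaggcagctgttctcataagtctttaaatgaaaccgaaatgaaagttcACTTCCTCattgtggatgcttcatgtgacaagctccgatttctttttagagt
Pf4: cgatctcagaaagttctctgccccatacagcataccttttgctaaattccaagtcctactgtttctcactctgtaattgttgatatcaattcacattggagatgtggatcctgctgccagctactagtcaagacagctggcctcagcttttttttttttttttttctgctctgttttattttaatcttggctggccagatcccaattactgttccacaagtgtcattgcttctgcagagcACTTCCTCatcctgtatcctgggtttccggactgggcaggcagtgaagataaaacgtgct

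Levels of microglial transcripts differed more between PLX5622 mice at ZT10 than at the other 5 times. The summed TPM of the microglia list was 863 to 980 in controls at ZT10. In the 4 PLX5622 mice it was 14.4%, 3.99%, 4.18% and 18.4% of the control mean. These 4 mice held both the lowest (37.4 TPM) and the highest (173 TPM) of the 24 PLX5622 mice. Mice at other times came close, with 38.2 TPM in the third PLX5622 mouse at ZT2 and 167 TPM in the second at ZT6. By the list's mean log2(TPM + 1), the lowest of all was that mouse at ZT2 (0.89, against 0.94 for the lowest at ZT10). The SD of the list's mean log2(TPM + 1) over PLX5622 mice was 0.76 at ZT10 and 0.24 to 0.51 at the other times, while that over controls was 0.12 to 0.15 at every time. Differences in spread were not tested. As a group, PLX5622 mice at ZT10 kept 10.2% of the control level, within the 7.98% at ZT2 to 15.6% at ZT18.

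**Figure D2:**
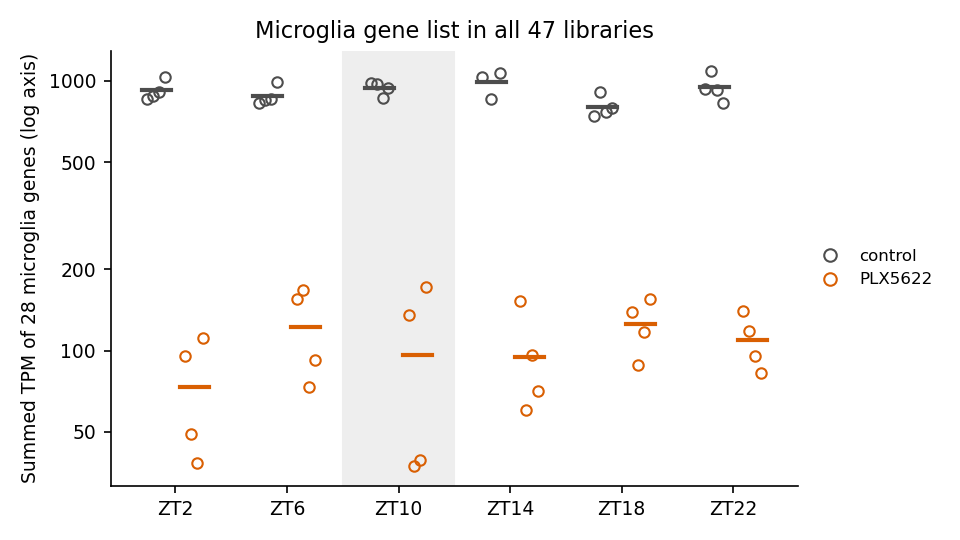
Summed TPM of the 28 microglia genes (log axis) in each of the 47 libraries by zeitgeber time, control and PLX5622, with bars at group means and ZT10 shaded. All PLX5622 mice lie below all controls at every time, and the PLX5622 mice at ZT10 span 37.4 to 173 TPM.

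Whether the effect at ZT10 departed from that at the other times was tested gene by gene, as the fold change at ZT10 minus the mean of the fold changes at the other 5 times. No gene was called at an adjusted p under 0.05 (0% of 14580, limma), and the smallest adjusted p was 0.38. At an unadjusted p under 0.05 there were 840 genes (5.76%), against the 5% that a test with no differences gives, 623 with a higher and 217 with a lower value at ZT10. edgeR and DESeq2 on the read counts also called 0 genes, with 889 and 905 at an unadjusted p under 0.05. Without the second control mouse 0 genes were called and 886 were at an unadjusted p under 0.05. An F test for any difference of the diet effect between the 6 times called 0 genes too, with 485 (3.33%) at an unadjusted p under 0.05 and a smallest adjusted p of 0.46. The median standard error of the difference was 0.16 on the log2 scale. These counts do not show that the effects were equal.

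For the microglia list the difference between ZT10 and the other times had a median of -0.27, with 0 of 27 genes at an unadjusted p under 0.05. Its median fold changes ran from -2.31 at ZT18 to -3.21 at ZT2, with -3.06 at ZT10. *C1qb* differed by -0.62 ± 0.49 (SE, unadjusted p = 0.217, limma) and *P2ry12* by 0.08 ± 0.35 (unadjusted p = 0.831, limma). The 3 border macrophage genes had fold changes with medians of -1.37 at ZT10 and -1.55 to -1.78 elsewhere. Gene by gene, the difference was -0.39 for *Pf4*, -0.32 for *Cbr2* and 0.29 for *Stab1*. Its median was -0.32, with 0 of the 3 at an unadjusted p under 0.05 (limma).

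**Figure D3:**
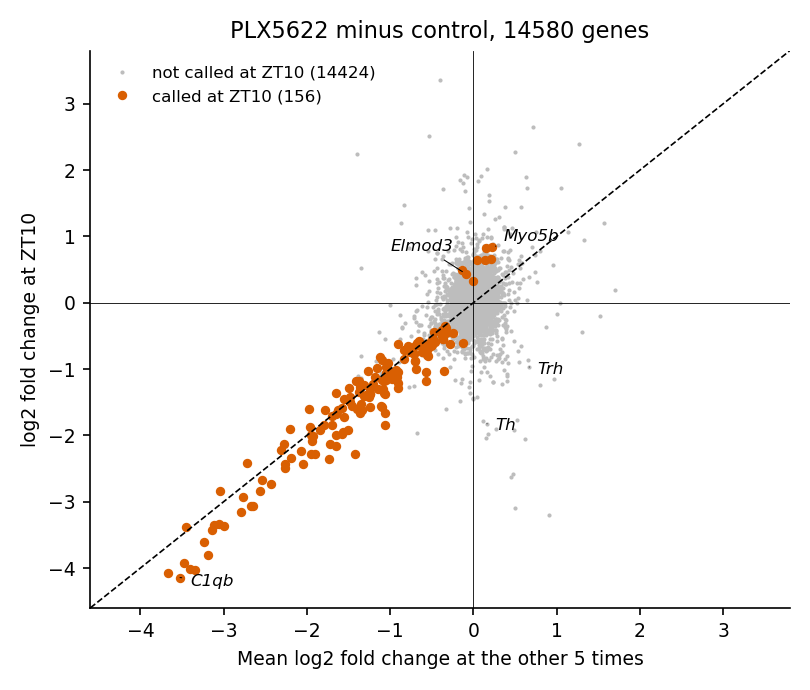
Log2 fold change at ZT10 (vertical axis) against the mean log2 fold change at the other 5 times (horizontal axis) for each gene tested, with the 156 genes called at ZT10 in orange and the line of equality dashed. The lower genes follow the line, *Th* and *Trh* lie below it, and the 8 higher genes lie above it.

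Genes lower at ZT10 were mostly lower at the other times as well. Counts of genes called lower were 172 (1.18%) at ZT2, 141 (0.967%) at ZT6, 129 (0.885%) at ZT14, 113 (0.775%) at ZT18 and 182 (1.25%) at ZT22. The genes shared with ZT10 made up 87.8%, 81.8%, 78.4%, 71.6% and 86.5% of the ZT10 genes, and 75.6%, 85.8%, 89.9%, 93.8% and 70.3% of the genes at the other time. These comparisons use different mice, and all rest on 1 shared estimate of spread. Of the 148, 97 were called lower at all 5 other times and 146 had a negative fold change at all 5. The exceptions were *Rrbp1* at ZT18 (log2 fold change 0.24) and *Vasp* at ZT14 (0.03). At ZT10 the fall exceeded the mean fall of the other times for 112 of the 148, and 10 of the 148 (6.76%) had an unadjusted p under 0.05 for the difference, against 5.76% of all genes. Selection by the call at ZT10 favours larger falls there, so these counts carry no test.

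Only 7 of the lower genes were called at none of the other times: *Rnaset2b*, *Grn*, *Rrbp1*, *B4galt1*, *Lgmn*, *Scamp2* and *Gmip*. *Lgmn* encodes the protease legumain and *Grn* encodes progranulin. The fold changes of the 7 at the other times were negative too, apart from *Rrbp1* at ZT18. *Gmip*, which encodes a GTPase-activating protein, was at 2.93, 4.90, 5.67 and 2.28 TPM in controls and at 1.15, 0.75, 1.97 and 1.66 TPM on PLX5622. Its log2 fold change was -1.02 at ZT10 and averaged -0.35 elsewhere, a difference of -0.67 ± 0.23 (SE, unadjusted p = 0.00615, adjusted p = 0.801, limma) that was -0.31 in edgeR (unadjusted p = 0.107). *Rrbp1*, a ribosome-binding protein of the endoplasmic reticulum, was at 19.6, 21.4, 21.3 and 20.7 TPM against 17.6, 11.5, 11.5 and 13.01 TPM. The difference for *Rrbp1* was -0.49 ± 0.16 (SE, unadjusted p = 0.0046, adjusted p = 0.801, limma) and -0.25 in edgeR (unadjusted p = 0.0161). *Lgmn* and *Grn* lost the ZT10 call without control mouse 2, 3 or 4 or PLX5622 mouse 2 or 3, with adjusted p up to 0.258 and 0.212 (limma). *Rrbp1* lost it without the same mice or PLX5622 mouse 4 (up to 0.132), *B4galt1* without control mouse 2 or 4 or PLX5622 mouse 2, 3 or 4 (up to 0.362) and *Rnaset2b* without control mouse 4 or PLX5622 mouse 2 or 3 (up to 0.0531). On the read counts *Rnaset2b* was not called (log2 fold change -0.35, adjusted p = 0.924, edgeR), against -0.62 and 0.00867 by limma.

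Genes higher at ZT10 were few, small in effect and not called at any other time. *Myo5b*, an unconventional myosin of membrane traffic, was at 24.1, 17.05, 20.02 and 26.5 TPM in controls and at 40.4, 35.5, 44.2 and 38.1 TPM on PLX5622. Its log2 fold change was 0.84 ± 0.20 (SE, adjusted p = 0.0174, limma). *Capsl* was at 0.99, 1.83, 1.82 and 2.72 TPM against 4.59, 3.55, 3.70 and 3.95 TPM, with a log2 fold change of 0.83 ± 0.18 (SE, adjusted p = 0.00631, limma). *Elmod3* was at 11.8, 15.3, 14.02 and 16.3 TPM against 23.0, 18.7, 17.9 and 19.4 TPM. The groups did not overlap for these 3, nor for *Gm38393*, *Dixdc1* and *Mras*, at log2 fold changes of 0.66, 0.65 and 0.33. The remaining 2 were *1700087I21Rik* and the pseudogene *Gm5859*, at 0.65 and 0.49.

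The higher calls depended on single libraries, and most were not made from the read counts. *Capsl* lost its call without the first control mouse (adjusted p = 0.0716, limma). *Elmod3* lost it without the first or the third control mouse or the first PLX5622 mouse (adjusted p = 0.136, 0.0555 and 0.154, limma). *Myo5b* lost it without the second or the third control mouse or the first or the third PLX5622 mouse (adjusted p = 0.136, 0.0661, 0.0547 and 0.0959, limma). *Gm38393* lost it without any 1 of control mice 2, 3 and 4 or PLX5622 mice 1 and 3 (adjusted p = 0.0617 to 0.33, limma), and *Dixdc1* without control mouse 3 or 4 or PLX5622 mouse 1, 3 or 4 (0.0596 to 0.237). The call was lost for *Mras* without control mouse 2, 3 or 4 or PLX5622 mouse 1, 2 or 4 (0.0842 to 0.21), and for *1700087I21Rik* without control mouse 1, 2 or 3 or PLX5622 mouse 1, 3 or 4 (0.0614 to 0.286). *Gm5859* lost it without control mouse 2 or 4 or PLX5622 mouse 1, 3 or 4 (0.131 to 0.22). On the read counts, where both the quantification and the test differ, edgeR called 139 of the 148 lower genes lower and 1 of the 8 higher genes higher, *Gm38393*. DESeq2 on the same counts called 142 of the 148 lower and 3 of the 8 higher, *Gm38393*, *Myo5b* and *Capsl*, among 18 genes that it called higher. For *Elmod3*, *Dixdc1* and *Mras* the edgeR log2 fold changes were 0.15, 0.06 and 0.17.

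None of the genes with the smallest p for the difference between ZT10 and the other times was called, and their values are given as a description. *Elmod3* had the smallest p, with a fold change of 0.44 at ZT10 and a mean of -0.09 elsewhere. The difference was 0.53 ± 0.11 (SE, unadjusted p = 4.75e-05, adjusted p = 0.38, limma), and 0.15 in edgeR (unadjusted p = 0.148). *Celf5*, an RNA-binding protein of neurons, was at 81.2, 71.0, 67.8 and 72.6 TPM in controls and at 90.5, 82.2, 90.6 and 95.1 TPM on PLX5622. It differed by 0.47 ± 0.11 (SE, unadjusted p = 7.97e-05, adjusted p = 0.387, limma). The other genes on the higher side were *Gm5859*, *Fam205c*, *Speg*, *Sept3*, *Gm13301*, *Plekha8*, *Gm49601* and *Mras*, with differences of 0.34 to 0.85. *Gm5859* (chr4:42236859-42239182) and *Gm13301* (chr4:42216908-42235604) are neighbours annotated as pseudogenes, and their values are uncertain, since whether related copies share their reads was not tested. The protein-coding *Fam205c* (chr4:42868004-42874234) lies on the same chromosome.

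On the lower side *Th*, tyrosine hydroxylase, the rate-limiting enzyme of dopamine and noradrenaline synthesis, had one of the largest differences. It was at 7.89, 13.6, 7.99 and 17.8 TPM in controls and at 2.26, 1.41, 2.21 and 4.51 TPM on PLX5622, with no overlap. Its fold change of -1.82 at ZT10 was not called (adjusted p = 0.0764, limma). The mean at the other times was 0.16 and the difference -1.99 ± 0.56 (SE, unadjusted p = 0.000956, adjusted p = 0.745, limma). *Trh*, the precursor of thyrotropin-releasing hormone, was at 13.7, 7.77, 10.0 and 12.6 TPM against 7.03, 4.97, 4.47 and 4.01 TPM, also without overlap, and differed by -1.64 ± 0.46 (SE, unadjusted p = 0.00109, adjusted p = 0.745, limma). *Calb2*, calretinin, is not among the genes with the smallest p but is on the thalamus list. It was at 49.5, 84.3, 48.4 and 85.8 TPM against 37.0, 21.7, 30.3 and 23.7 TPM, and was not called at ZT10 (log2 fold change -1.2, adjusted p = 0.314, limma). The 7 thalamus genes tested had a median log2 fold change of -0.05 at ZT10, with 4 below 0 and 3 above. The other genes on the lower side were *Pld6*, *Fars2*, *Gm15516*, *Gm29216*, *Gm17066*, *Parp4*, *H2-Q2* and *Bend7*. Of these, *Gm15516* and *Gm29216* are annotated as pseudogenes, and their values are uncertain. *Gm15516* was at 0, 6.80, 4.73 and 3.55 TPM in controls and at 0 TPM in every PLX5622 mouse. *Gm29216* ran from 2009 to 9435 TPM in controls, with a log2 fold change at ZT10 of -1.10 by limma and -0.35 by edgeR.

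In these 20 genes the control mean at ZT10 was at an extreme of the 6 times more often than the PLX5622 mean. For 9 of the 10 on the higher side, the control mean at ZT10 was the lowest of the 6 control means, and for 7 the PLX5622 mean was the highest of its 6. For all 10 on the lower side the control mean was the highest of 6, and for 8 the PLX5622 mean was the lowest. *Th* averaged 11.8 TPM in controls at ZT10 and 2.53 to 7.38 TPM in controls at the other times, while PLX5622 mice averaged 2.60 TPM at ZT10 and 3.18 to 9.30 TPM elsewhere. *Celf5* averaged 73.2 TPM in controls at ZT10 and 86.8 to 96.5 TPM at the other times. The selection by the difference favours such positions, so they carry no test.

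**Figure D4:**
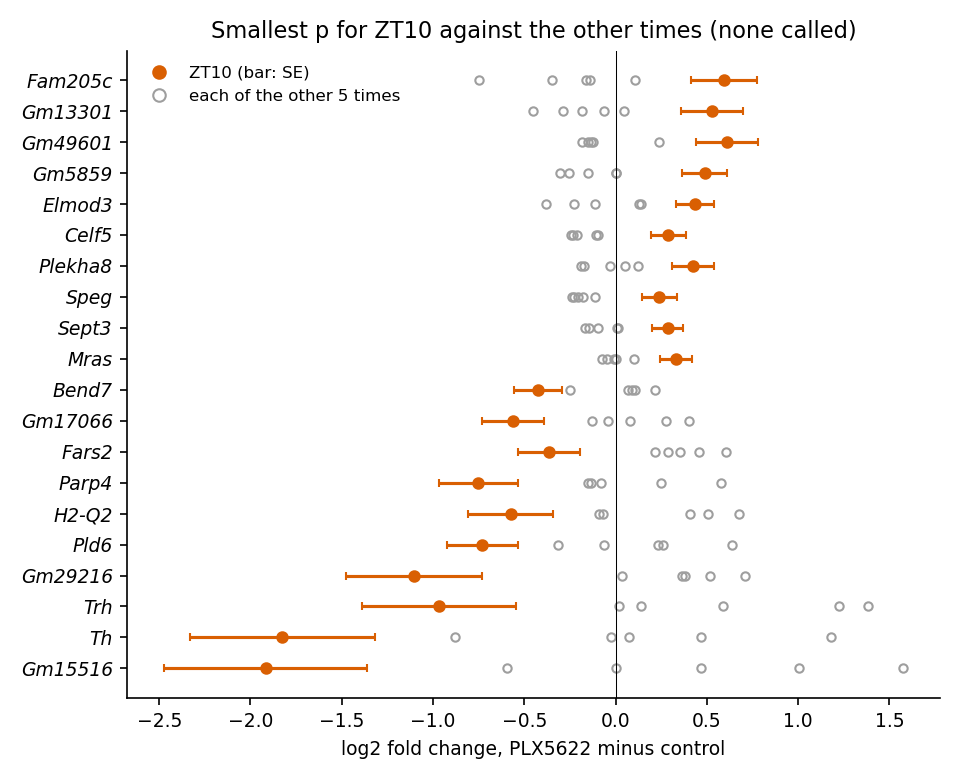
Log2 fold change (PLX5622 minus control, horizontal axis) at ZT10 with its standard error, and at each of the other 5 times, for the 20 genes with the smallest p for the difference. In each gene the value at ZT10 lies outside the 5 others, and none passed the adjusted threshold (smallest adjusted p 0.38).

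The second control mouse held transcripts of other brain regions. Its summed level of the 20 cerebellum genes was 365 TPM, against 75.9 to 101 TPM in the other 3 controls at ZT10. Only 1 of the 47 libraries was higher, the third PLX5622 mouse at ZT14 with 387 TPM. All 20 members exceeded the other 3 controls. *Pcp2*, a Purkinje cell gene, was at 0.51, 117, 0.33 and 2.36 TPM in controls and at 0.90, 29.0, 9.44 and 0.33 TPM on PLX5622. *Gabra6* and *Cbln3*, genes of cerebellar granule cells, were at 12.8 and 22.02 TPM in this mouse and at most 0.02 and 0.21 TPM in the other 3 controls. The second PLX5622 mouse had the next highest values of these 3 genes.

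Striatal transcripts moved the opposite way in the same library. Its summed level of 9 striatum genes was 245 TPM, the lowest of all 47 libraries, against 351 to 1241 TPM in the other 46. *Drd1*, the D1 dopamine receptor, was at 19.8, 3.53, 17.02 and 27.2 TPM in controls, and *Adora2a*, an adenosine receptor of striatal neurons, at 47.1, 4.53, 25.4 and 52.5 TPM. The summed brainstem list was at its highest in this mouse, 6.53 TPM, with the next library at 6.18 TPM. Among all genes tested, *Ucn* stood out most. This gene for urocortin, a peptide of the CRF family, was at 18.4 TPM in this mouse, 2.32 times the highest other library. *Cartpt*, a neuropeptide precursor, was at 90.1 TPM against at most 44.8 TPM elsewhere.

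**Figure D5:**
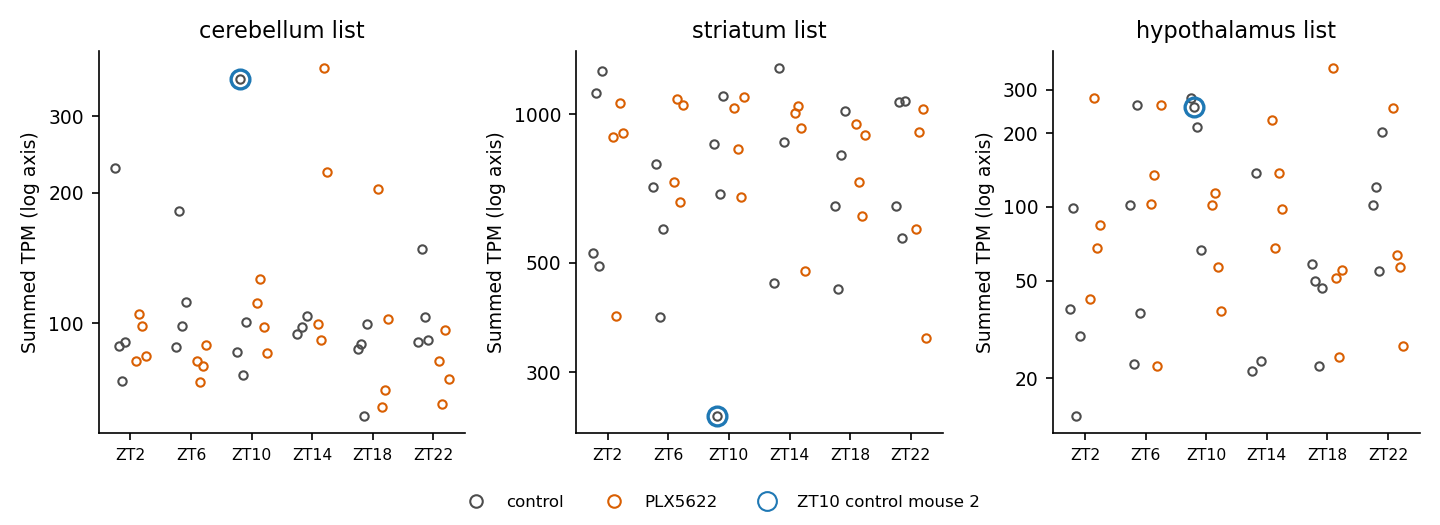
Summed TPM (log axes) of the cerebellum, striatum and hypothalamus lists in each of the 47 libraries by zeitgeber time, with the second control mouse at ZT10 ringed. It is second highest of 47 for the cerebellum list (365 TPM) and lowest for the striatum list (245 TPM).

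None of the cerebellum, striatum or other region genes was called at ZT10. The striatum list had a median log2 fold change of 0.68 with all 9 members above 0, and 0.14 without the second control mouse. The cerebellum list had a median of -0.22 over 14 genes tested, and 0.12 without that mouse. Some calls at ZT10 changed without this mouse. *B2m*, the light chain of MHC class I and the only interferon-list gene called of 13, fell from 219 ± 28.4 to 150 ± 17.4 TPM (SD, n = 4 each, adjusted p = 0.00808, limma), and was not called without this mouse (adjusted p = 0.0843). *Gfap*, an intermediate filament of astrocytes, had a log2 fold change of 0.64 (adjusted p = 0.259, limma) and was called higher without this mouse, at 0.87 (adjusted p = 0.0308). Both genes moved the same way at every other time. *Gfap* ran from 0.32 to 0.76 there with no call. *B2m* ran from -0.49 to -0.20 and was called at ZT22 (adjusted p = 0.0242, limma).

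All 8 tested genes of the hypothalamus list had fold changes below 0 at ZT10, and none was called. The median log2 fold change was -1.06 at ZT10 and 1.36, 0.03, 0.68, 0.49 and -0.18 at ZT2, ZT6, ZT14, ZT18 and ZT22. *Hcrt*, the orexin precursor of the lateral hypothalamus, was at 23.5, 63.6, 12.1 and 1.16 TPM in controls and at 0.25, 0.72, 12.9 and 0 TPM on PLX5622. *Pmch*, the precursor of melanin-concentrating hormone, was at 69.8, 48.5, 20.1 and 3.22 TPM against 0.48, 3.94, 7.97 and 2.75 TPM. The groups overlapped for both genes, and the difference from the other times had unadjusted p = 0.0289 for *Hcrt* and 0.0225 for *Pmch* (limma, adjusted p = 0.831 and 0.81). Without the second control mouse these unadjusted p were 0.106 and 0.0578, while the list's median log2 fold change at ZT10 was -1.11. *Trh*, described above, is also on this list and was its only tested member without overlap. Its difference had unadjusted p = 0.00109, or 0.000966 without that mouse (limma, adjusted p = 0.745 and 0.672). The summed list level ran from 66.6 to 279 TPM in controls at ZT10, and from 14.1 to 368 TPM over the 46 libraries other than the second control mouse. The part that tissue of other regions has in these values was not tested.

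All 9 tested choroid plexus genes had fold changes above 0, with a median of 0.68 on the log2 scale and no call. *Ttr*, transthyretin, the main product of this epithelium, was at 415, 576, 252 and 278 TPM in controls and at 602, 752, 1137 and 634 TPM on the drug, without overlap. Its log2 fold change was 1.07 ± 0.58 (SE, adjusted p = 0.706, limma). Medians of the list at the other times ran from -0.10 to 0.58.

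Clock genes showed no called change at ZT10. Of 19 tested, 15 had fold changes above 0, with a median of 0.05, the same as over all genes. Without the second control mouse these medians were 0.09 and 0.07. The groups did not overlap for 1 of the 19, *Hlf*, with PLX5622 mice above controls as in 1.82% of all genes tested. This output transcription factor was at 63.7, 61.8, 49.9 and 63.7 TPM in controls and 80.9, 69.2, 70.8 and 64.2 TPM on PLX5622 (adjusted p = 0.7, limma). *Tef*, a related factor, was at 158, 148, 126 and 144 TPM in controls and at 150, 173, 154 and 178 TPM on PLX5622. *Per1*, a core repressor of the clock, was at 22.7, 18.3, 20.5 and 22.5 TPM against 25.5, 29.7, 20.9 and 33.5 TPM. Both overlapped between groups. Their differences from the other times were 0.23 and 0.48, with unadjusted p = 0.00754 and 0.0237 and adjusted p = 0.801 and 0.81 (limma).

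Immediate early genes, which neurons switch on with activity, varied widely between mice within each diet. *Fos* was at 1.17, 3.67, 1.43 and 31.6 TPM in controls and at 6.09, 2.45, 3.41 and 20.2 TPM on PLX5622. *Arc* was at 16.0, 25.6, 13.7 and 90.8 TPM against 44.7, 20.2, 23.4 and 81.6 TPM. The fourth mouse of each diet was the highest for both genes. Over all times, the mean log2(TPM + 1) of the list was highest in the mouse numbered 4 in 10 of the 11 groups that have one. Of the 18 tested, 17 had fold changes above 0, with a median of 0.15, or 0.07 without the second control mouse, and no call. Medians of the list at the other times ran from -0.75 to -0.06. The difference from those times had a median of 0.38, or 0.31 without that mouse, with 1 of the 18 below 0. Its unadjusted p was under 0.05 for 2 genes, and the smallest adjusted p was 0.836 (limma).

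Several cell type and pathway lists held 0 called genes at ZT10: 8 neuronal, 8 interneuron, 10 astrocyte, 8 oligodendrocyte, 8 precursor, 8 endothelial and 8 mural cell genes, 7 genes each of blood and perineuronal nets, 13 of the cold and heat response, 12 of the glucocorticoid response, 17 of cholesterol synthesis and 13 mitochondrial transcripts. All 17 cholesterol synthesis genes had fold changes above 0, with a median of 0.15 and differences from the other times of -0.12 to 0.13. Red cell transcripts varied between mice of both diets. The haemoglobin gene *Hba-a1* was at 69.5, 264, 72.6 and 79.8 TPM in controls and at 57.5, 467, 91.0 and 111 TPM on PLX5622, highest in the second mouse of each diet.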

How the data were processed

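Cortical RNA was sequenced from 47 mice, 1 library each. The authors aligned reads with STAR and estimated TPM with Salmon, per the study's methods. A second deposited table is named for FPKM but holds whole numbers per gene, so it was read as counts, and the submitters' processing notes name featureCounts, edgeR, limma and mm10. Library sizes are its column sums. Members and gene lists were chosen with earlier results of these data known.

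Genes averaging 1 TPM or more across the 47 libraries were fitted with limma 3.58.1 (R 4.3.3) on log2(TPM + 1), 1 mean per diet and time, with no replicate block. Fold changes are on that scale, which understates changes of low genes. Tests were 2-sided with Benjamini-Hochberg adjustment at 0.05. edgeR 4.0.16 (quasi-likelihood) and DESeq2 1.42.0 were run on the counts. Other alternatives changed the filter, pseudocount, scaling, variance trend, replicate block, time model and threshold, or left out libraries. The fits were tested on simulated data. P-values measure the spread between these mice, whose cages the labels do not give. The study's methods state that mice were housed 4 to a cage, so diet and cage may coincide and cannot be told apart here.

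Genes were named by rule: the 10 largest non-overlapping called changes in each direction (6 existed for higher), the 10 smallest p for the difference in each direction, the 10 genes highest in the second control mouse relative to all others, and list members. Results for some list members are not reported here. Other named genes are said to be chosen afterwards, or stand in counts of called genes. Replicates of 1 group differed by more than counting noise. The brainstem list had 0 genes above the minimum, and 5 genes of the hippocampus list were tested with 0 called. Coordinates come from GENCODE M21 and promoter windows from RefSeq.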

Additional observations from a re-analysis of the deposited data

Results flagged for a closer look

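A group of 4 mice was marked where the gap between its extreme mouse and the next exceeded Dixon's 95% limit. There were 16 marks in 173 groups, where chance gives 8.65. Among list means (log2(TPM + 1)), the cerebellum list was at 4.08 in the second control mouse, against 2.09 to 2.33 in the other 3. The immediate early list was at 4.54 in the fourth control mouse, against 3.06 to 3.29. The clock list was at 4.19 in the third control mouse, against 4.37 to 4.40. In PLX5622 mice, the second had the highest blood list (6.65, against 4.39 to 4.69) and the lowest interneuron list (6.26, against 6.67 to 6.69). The first had the highest oligodendrocyte precursor list (4.65, against 4.30 to 4.33) and the highest endothelium list (4.75, against 4.37 to 4.40).

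Among single genes (TPM), *Fam205c*, *Speg* and *Parp4* were highest in the first control mouse, at 12.6, 100.5 and 3.72, where the other controls reached at most 5.66, 84.1 and 3.46. *Pf4* was highest in the second control mouse (8.25) and *Cbr2* in the fourth (10.5). In PLX5622 mice, *B2m* was highest in the first (175), *Hcrt* in the third (12.9) and *1700087I21Rik* in the fourth (6.06, others 3.85 to 4.15), and *Lyz2* was lowest in the third (1.05, others 3.05 to 3.45). No explanation of these values was tested.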

How the results depend on the processing

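The 10 genes with the largest falls were called lower under all alternatives run, with log2 fold changes of -3.00 or further from 0 and adjusted p up to 0.0257 (limma, edgeR or DESeq2). The count of genes called at ZT10 was 273 (249 lower, 24 higher) with no filter on low values, where the F test called 2, and 59 (57 lower, 2 higher) at a mean of at least 5 TPM. Genes called higher, 8 as reported, numbered 18 by DESeq2, 2 from the 8 ZT10 libraries alone, 15 with cosine and sine terms of ZT, and 1 at an adjusted p under 0.01. They numbered 4 without the 6 libraries with a cerebellum list mean above 3, an alternative chosen after seeing the data. With each ZT10 library left out in turn, calls ran from 125 to 167, lower genes from 122 to 150 and higher genes from 2 to 27 (27 without the first control mouse). The difference from the other times and the F test each called 0 to 1 genes (*Fam205c* without the first control mouse). The difference for *Gm13301* reversed to -0.48 by edgeR and -0.49 by DESeq2. Same-numbered control and PLX5622 mice were not taken as pairs, since their deviations did not all correlate above 0.1 (-0.06, 0.08, 0.07 and 0.13 at ZT10). This limit cannot show whether shared numbers mark a batch or an order of handling. Over all times 19 of 23 such correlations were positive and 7 were above 0.1 (-0.09 to 0.20), and 4 of the 8 mice at ZT10 correlated best with their own number. With a replicate block 159 genes were called, 149 lower and 10 higher, with 0 for the difference and the F test. Across the genes named with a ZT10 fold change and all alternatives, 783 values stayed on the same side of the threshold, 150 lost a call, 2 gained one (*Gfap*) and 0 changed direction. The cause of these changes was not tested.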
